A study of Mus musculus with 2 samples.

Results

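The actin isoforms, transgelin and the calponins form a set of 10 genes: Acta1, Acta2, Actc1, Actg2, Actb, Actg1, Tagln, Cnn1, Cnn2 and Cnn3. They were chosen by name, and each was read by the array probes whose RefSeq accession belongs to it, 16 probes in all, out of 21368 genes named on the array. All 10 genes and all 16 probes gave a signal well above background on both arrays, so no member was lost to a filter on dim probes. A measured gene here is one with such a probe, and 14004 genes were measured.

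Heart RNA of mice was read on 1-colour (Cy3) Agilent arrays, a single array for each group. The control heart was of C57BL6 background. The other heart came from a B6.Cg line on that background with the transgene CAG-WRN*K577M (line 5025Wcl/Mmmh), called WRN-K577M here, in which the broadly active CAG promoter drives a WRN helicase with a substitution, in every cell type where that promoter works. The labels give neither the age of the mice nor the number of hearts behind a sample, and they leave the letters ND in both titles unexplained. The study's stated question is the signalling behind cardiac remodelling in the transgenic line. A single array per genotype allows no test, and genotype cannot be told apart from any other difference between the samples.

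Mammals have 6 conventional actin genes that encode nearly identical proteins. Sarcomeres are built from alpha-skeletal actin (Acta1) and alpha-cardiac actin (Actc1), vascular smooth muscle from alpha-smooth-muscle actin (Acta2), visceral smooth muscle mostly from gamma-smooth-muscle actin (Actg2), and the cytoskeleton of every cell from beta-actin and gamma-actin (Actb, Actg1). In the mouse heart Actc1 is the main sarcomeric isoform, Acta1 is abundant around birth and can return under load, and Acta2 is made early in heart development and in adult hearts by vessels and by activated fibroblasts. Transgelin (Tagln, also called SM22-alpha) and calponin 1 (Cnn1) bind actin filaments in smooth muscle, while calponins 2 and 3 (Cnn2, Cnn3) are found in many cell types outside muscle. Many of these genes are targets of serum response factor, which binds a sequence called the CArG box, and whose co-activators, myocardin and the myocardin-related factors, respond to cell type and to the state of actin itself.

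The windows before the start of 4 actin genes are shown because they carry this motif, Acta2 only in forms with 1 substitution, while Acta2 was higher, Acta1 and Actg1 lower and Actc1 near equal in the WRN-K577M heart. Each is the 250 bases before the annotated start from RefSeq on GRCm38.p6, at chr8:123894776-123895025 for Acta1, chr19:34255374-34255623 for Acta2, chr2:114052876-114053125 for Actc1 and chr11:120348496-120348745 for Actg1, all on the minus strand and printed 5′ to 3′. Capitals mark a CArG box, or one with 1 substitution in its A and T core, and a box reads the same class of letters on both strands.
Acta1: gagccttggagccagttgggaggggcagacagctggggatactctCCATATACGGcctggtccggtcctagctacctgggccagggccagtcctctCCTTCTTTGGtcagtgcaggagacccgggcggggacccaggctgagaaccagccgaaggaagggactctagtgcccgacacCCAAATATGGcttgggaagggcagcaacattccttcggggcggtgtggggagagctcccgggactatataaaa
Acta2: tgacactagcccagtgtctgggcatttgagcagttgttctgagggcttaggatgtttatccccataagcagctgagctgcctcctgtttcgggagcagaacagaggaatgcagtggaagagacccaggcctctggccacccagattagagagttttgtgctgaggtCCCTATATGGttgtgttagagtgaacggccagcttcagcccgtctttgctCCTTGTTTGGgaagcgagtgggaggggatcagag
Actc1: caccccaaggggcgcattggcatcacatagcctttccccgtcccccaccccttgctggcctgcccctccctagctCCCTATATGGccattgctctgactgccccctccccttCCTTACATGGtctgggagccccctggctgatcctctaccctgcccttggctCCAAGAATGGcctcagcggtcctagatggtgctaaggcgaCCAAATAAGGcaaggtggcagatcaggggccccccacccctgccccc
Actg1: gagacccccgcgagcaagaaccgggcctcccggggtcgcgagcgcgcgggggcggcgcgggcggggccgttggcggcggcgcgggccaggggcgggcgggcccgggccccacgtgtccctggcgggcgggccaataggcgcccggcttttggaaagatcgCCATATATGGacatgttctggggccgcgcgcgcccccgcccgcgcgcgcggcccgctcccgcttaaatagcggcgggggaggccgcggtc

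The sequences were found for 7 members, namely these 4, Cnn1, Cnn2 and Cnn3. A CArG box with an unbroken core stood in 4 of the 7 windows, 73 bases before the start of Acta1, 47 before that of Actc1, 90 before that of Actg1 and 56 before that of Cnn2. The window of Acta2 held 2 boxes with 1 substitution, 84 and 34 bases before the start, and the windows of Acta1 and Actc1 held 2 and 3 more of that kind. Neither the Cnn1 nor the Cnn3 window held a box of either kind. Of 32851 RefSeq promoter windows of this length, 1.47% held an unbroken box and 8.59% a box of either kind. CATTCC, the MCAT motif bound by TEAD factors, stood on the plus strand of the Acta1 window and on the minus strand of the Acta2 window, and 12.6% of all windows held it on either strand. These are matches of letters, not shown to be bound in these hearts.

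A level is the log2 of the processed signal after division by its array's 75th percentile, and the log2 ratio of a gene subtracts its control level from its WRN-K577M level. Only Acta2 among the actins and transgelin was clearly higher in the WRN-K577M heart, by a log2 ratio of 0.85 (1.80-fold). Cnn1 was 2.39-fold lower, Tagln 1.92-fold, Acta1 1.68-fold and Actg1 1.55-fold. Actb and Actg2 were lower by about 1.25-fold, and Actc1, Cnn2 and Cnn3 differed by less than the software's own error of a log2 ratio or little more than that. Of the 10 genes, 6 had a log2 ratio below 0, where 47.6% of all measured genes did. Their median was -0.32, beside 0.020 for all measured genes. At 2-fold, 1 of the 10 was lower (Cnn1), where 3.46% of all measured genes were, and none was higher, where 1.94% were. A count of 1 in 10 says little against that background, and the account below rests on the single genes.

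**Figure D1:**
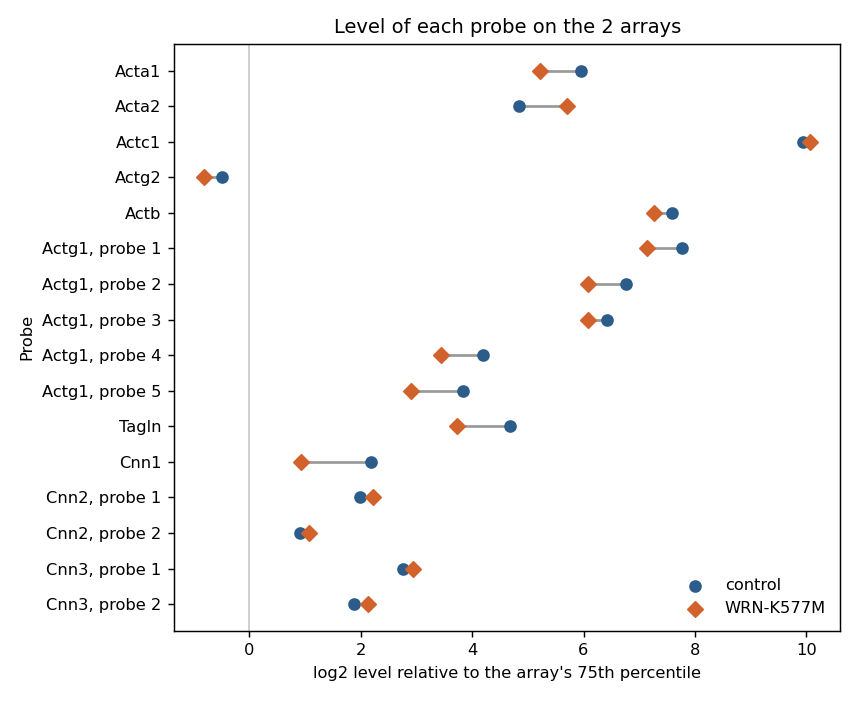
Level of each of the 16 probes (log2 signal relative to the array's 75th percentile, x axis) on the control array (circles) and the WRN-K577M array (diamonds), 1 value per array, with a grey line joining the pair. Acta2 lies to the right on the WRN-K577M array and Acta1, Tagln, Cnn1 and all 5 Actg1 probes lie to the left, and positions of different probes are not comparable with each other.

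Measurement error can be judged in 2 ways, neither of which covers the difference between animals. Over 159 probes printed at 10 spots each and bright at all of them, the log2 ratio varied between spots with an SD of 0.12. The software's error estimate gave an SD of 0.20 for the log2 ratio of a single spot of every member except Actg2, for which it was 0.21. By the probe that stands for each gene, the ratios of Acta2, Acta1, Actg1, Tagln and Cnn1 exceeded 3 times the software's SD. Those of Actb and Actg2 did not reach 2 times, and that of Cnn2 was just above 1. Another Actg1 probe, with a log2 ratio of -0.34, did not reach 2 times either.

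Among the sarcomeric actins, the skeletal isoform was lower and the cardiac isoform was near equal. The Acta1 probe read processed signals, before scaling, of 15929 for the control and 7769.9 for WRN-K577M, and its level was 5.96 and 5.21. Its log2 ratio was -0.75, and 6.04% of measured genes had a lower one. The Actc1 probe had levels of 9.93 and 10.07 and a log2 ratio of 0.13, which turned to -0.08 with quantile normalization and to -0.06 with cyclic loess, so no direction is given for it. Acta1 thus stood 1.84-fold lower relative to Actc1 in the WRN-K577M heart, a difference of 0.88 between their log2 ratios that no single scaling factor per array can alter.

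Acta1 is often listed with the genes of the fetal cardiac programme, and it did not share the direction of the slow myosin heavy chain. Myh7 had a log2 ratio of 3.91 and Nppb, the precursor of brain natriuretic peptide, one of 2.26, while Nppa, the precursor of atrial natriuretic peptide, had -1.06. Acta1 therefore lay on the side of Nppa, and Nppa is also an atrial marker. Acta2, which is made early in heart development, had 0.85, on the side of Myh7 and Nppb. Whether cardiomyocytes carried the Acta2 difference was not tested. Skeletal muscle attached to a heart would carry Acta1 too. The fast skeletal myosins Myh1, Myh2 and Myh4, the skeletal alpha-actinin Actn3 and the myogenic factors Myod1 and Myog stayed below the call of well above background on both arrays. The summed level of the 6 skeletal markers that were measured was 27.1 on the control and 24.9 on the WRN-K577M array, in units of the array's 75th percentile, and 5.44 and 4.01 without the calcium pump gene Atp2a1, whose log2 ratio was -0.05. Among the others, Pvalb (parvalbumin) with -0.95 and Mybpc2 with -0.72 were lower, as Acta1 was, and Tnni2 had -0.15. Mylpf and Tnnt3 were higher with 0.79 and 0.76, but both were dim. Their levels in control and WRN-K577M were -3.30 and -2.51 for Mylpf and -3.72 and -2.95 for Tnnt3. The median of the measured skeletal markers was -0.10, -0.44 with a stricter filter on dim probes, and 0.34 with no filter.

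Among the smooth muscle isoforms, Acta2 stood apart. Its probe was printed at 10 spots, which read 6876 to 7673 (median 7429) on the control array and 10296 to 11719.5 (median 10846) on the WRN-K577M array. No spot of one array overlapped with those of the other, even before scaling. The level was 4.85 ± 0.05 on the control and 5.70 ± 0.06 on the WRN-K577M array (SD over 10 spots of 1 array, which are not replicates of the genotype). The log2 ratio ran from 0.77 to 0.94 over the spots with an SD of 0.05, and 71.1% of the 159 probes printed in this way had a larger SD. Only 2.94% of measured genes had a higher log2 ratio than Acta2.

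**Figure D2:**
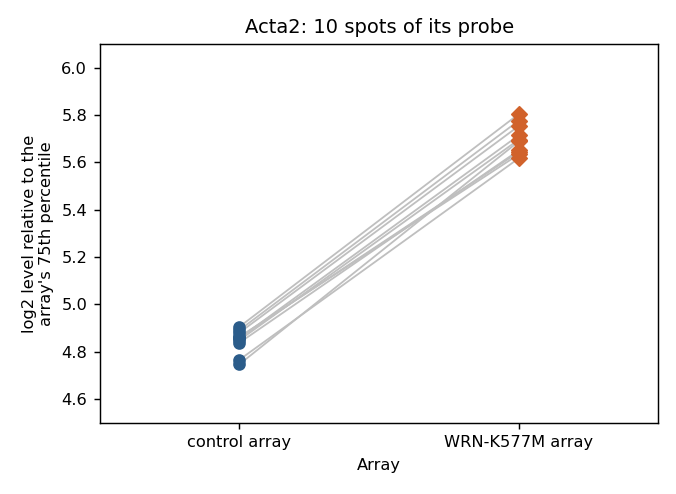
Level of the 10 spots of the Acta2 probe (log2 signal relative to the array's 75th percentile, y axis, which does not start at 0) on the control array (circles) and the WRN-K577M array (diamonds), with a line joining the spots at the same place on the arrays. All 10 lines go up, from a mean of 4.85 to a mean of 5.70.

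Gamma-smooth-muscle actin went the other way by a small step. Actg2 had processed signals of 183 and 119.9 in control and WRN-K577M, with levels of -0.48 and -0.81 and a log2 ratio of -0.32. Transgelin was at 6531 and 2785, with levels of 4.67 and 3.73 and a log2 ratio of -0.94, and 3.91% of measured genes were lower still. Calponin 1 was at 1160.1 and 397, with levels of 2.18 and 0.92 and a log2 ratio of -1.26, the lowest of the set, with 1.90% of measured genes below it. Acta2 and these partners of the same contractile apparatus therefore differed in opposite directions. Acta2 was 3.47-fold higher relative to Tagln and 4.32-fold higher relative to Cnn1 in the WRN-K577M heart than in the control, and 2.26-fold higher relative to Actg2.

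Whether Acta2 or Tagln and Cnn1 followed the rest of the smooth muscle programme can be read from its other genes. Of the 13 smooth muscle markers, 11 were measured, 9 of them with a log2 ratio below 0 and a median of -0.59. Myh11, the smooth muscle myosin heavy chain, had levels of 0.31 and -0.32 and a log2 ratio of -0.63. Myl9, its regulatory light chain, had -0.72, Smtn (smoothelin) -0.93, Synpo2 (synaptopodin 2) -0.59, with another of its probes at 0.14, and Tpm2 (beta-tropomyosin) -0.41. Myocd, which encodes myocardin, and Itga8, an integrin subunit, were at least 2-fold lower, with -1.09 and -1.67. Mylk, the myosin light chain kinase gene, and Mustn1 were the 2 above 0, with 0.24 and 0.25. Lmod1 (leiomodin 1) and Npnt (nephronectin) were well above background on the control array and not on the other, which bounds them at 1.11-fold and 1.14-fold lower or more. The summed level of the 11 measured markers was 152 on the control and 97.3 on the WRN-K577M array. Without Smtn, the brightest, it was 97.1 and 68.4. Whether each of the 11 was read from smooth muscle alone was not tested. Acta2, with 0.85, lay above every one of the 11, and Tagln and Cnn1 lay near the low end of their range. Cnn1 was lower than all of them but Itga8, and Tagln lower than all but Itga8 and Myocd. Among smooth muscle contractile genes outside the marker list that cardiomyocytes also use, Des (desmin) had a log2 ratio of 0.66 and Vcl (vinculin) 0.25. Tpm1 had 0.16, other probes of it reaching -0.71, and Flna (filamin A) had -0.10. Acta2 lay above these 4. In these bulk samples, fewer smooth muscle cells and less RNA of a gene per cell cannot be told apart.

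Acta2 is also made outside the vessel wall's contractile cells, and markers of such cells stand beside it as follows. Of 9 pericyte markers all were measured, 6 had a log2 ratio above 0 and the median was 0.090, with the proteoglycan Cspg4 at 0.66, Rgs5, a regulator of G-protein signalling, at 0.30, the receptor Notch3 at 0.25 and Higd1b at -0.25. The other 2 below 0 were Kcnj8, a potassium channel, with -0.14 and Ndufa4l2 with -0.08. Mcam, whose value is the median, had another probe at -0.40, and the median was 0.042 with the mean of each gene's probes. The summed level of the pericyte markers was 72.4 on the control and 78.9 on the WRN-K577M array. Of 10 markers of activated fibroblasts 8 were measured and 6 had a log2 ratio below 0, with a median of -0.65. Comp had -1.74, Postn (periostin) -1.56, the transcription factor Meox1 -0.75 and Fn1 (fibronectin) -0.74. The 2 above 0 were the matricellular factor Ccn2, which cardiomyocytes also make, with 2.69 and Lox, a collagen cross-linking enzyme, with 0.70. Lox was dim, with levels of -3.49 and -2.78 in control and WRN-K577M. The summed level of the 8 was 44.4 on the control and 178 on the WRN-K577M array, and without Ccn2 that of the other 7 was 18.5 and 10.4. All 10 fibroblast markers were measured and 7 were past 2-fold on the lower side, their median being -1.40, with Col3a1 at -2.29, Mfap4 at -2.04, Pi16 at -1.86 and Col1a1 at -1.73. Tcf21, a fibroblast transcription factor, was the one above 0 (0.25). Their summed level was 337 and 235, and 140.4 and 46.1 without Dcn (decorin), whose log2 ratio was -0.06. No part of these lists in the Acta2 difference was tested.

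The cytoplasmic actins read lower, though the difference of Actb did not reach 2 times the software's SD. Actb, often used as a reference gene, had levels of 7.59 and 7.27 and a log2 ratio of -0.32 by its single named probe, with 18.6% of measured genes below it. Actg1 was read by 5 probes, all of which were lower in the WRN-K577M heart, with log2 ratios of -0.34, -0.63, -0.69, -0.76 and -0.95. The brightest, which stands for the gene, had levels of 7.77 and 7.14 and processed signals of 55855 and 29542. The range of 0.61 between the 5 probes was wider than in 90.2% of the 3651 genes with more than 1 measured probe, where the median range was 0.17, and a range widens with the number of probes. The direction of Actg1 is therefore shared by its probes and the size is uncertain between 1.26-fold and 1.93-fold. The probes' sequences are not in the files used here and the actin genes share most of their coding sequence, so how far an actin probe also reads another isoform was not tested.

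Calponins 2 and 3 were near equal. The Cnn2 probes had levels of 1.99 and 0.91 for the control and 2.23 and 1.08 for WRN-K577M, log2 ratios of 0.23 and 0.17. The Cnn3 probes had 2.76 and 1.88 for the control and 2.93 and 2.13 for WRN-K577M, log2 ratios of 0.17 and 0.25. All 4 probes lay slightly above 0, and 25.3% of measured genes lay above Cnn2 and 32.9% above Cnn3. Calponin 1 was 2.81-fold lower relative to Cnn2 and 2.68-fold lower relative to Cnn3 in the WRN-K577M heart. The muscle calponin and the calponins of other cells were thus set apart by more than the spread of either pair of probes.

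**Figure D3:**
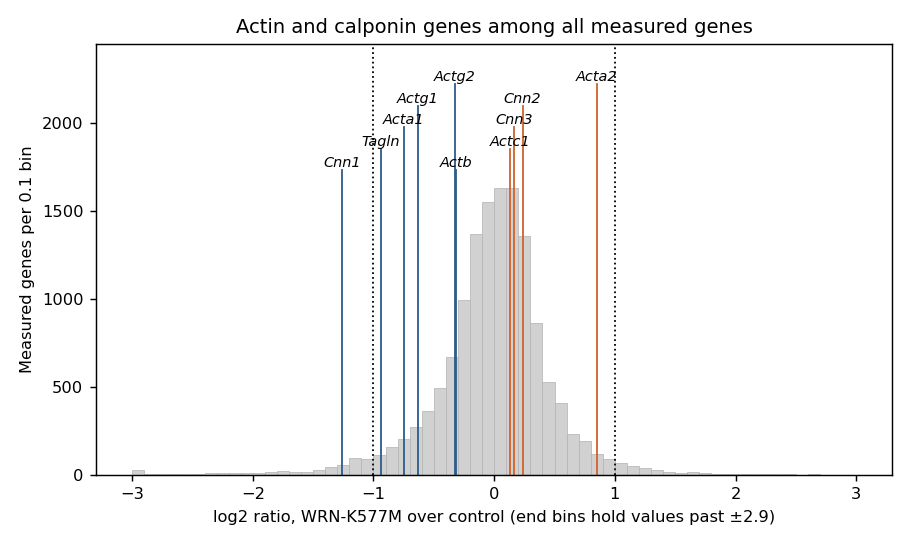
Number of measured genes (y axis, bins of 0.1) by log2 ratio of WRN-K577M over control (x axis), with lines at the values of the 10 members and dotted lines at 2-fold. Cnn1 at -1.26 lies past the 2-fold line, Tagln at -0.94 just inside it, and Acta2 at 0.85 is the member farthest to the right.

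The genes that share the actin fold or the calponin-homology domain gave a reference for the set. On the list of other actins and actin-related proteins, 10 genes were measured, all of them actin-related proteins. The actin on it, Actbl2, was well above background on neither array. The 10 genes, whose products nucleate branched filaments, work with dynein or remodel chromatin, had a median of 0.011 and none was 2-fold different. Their widest were Actr5 with 0.41, Actr6 with 0.20, Actr8 with 0.19 and Actl6a with -0.12, all of them subunits of chromatin remodellers. The 9 subunits of the Arp2/3 complex, which starts filament branches, had a median of -0.023, with Arpc5l at -0.41 and Arpc1b at -0.28 as the lowest. Of 15 measured genes on the list of transgelin relatives and calponin-homology proteins, 12 had a log2 ratio below 0, with a median of -0.27. The list also held Lims1 (0.35), which has LIM domains and no calponin-homology domain, and the median includes it. Smtnl2, a smoothelin-like protein, was at least 2-fold lower (-1.14), Tagln3, a neuronal transgelin, had -0.79, and Tagln2, the transgelin of non-muscle cells, had -0.15. Tagln3 was dim, with levels of -2.45 and -3.23 in control and WRN-K577M. Lcp1 and Vav1, with -0.65 and -0.75, are leukocyte proteins, and of 8 measured leukocyte markers 7 had a log2 ratio below 0, with a median of -0.71. The lowest of these markers were S100a8 and S100a9, each with -4.98. Actn2, the alpha-actinin of the cardiac Z-disc, had 0.34 and Actn1 of non-muscle cells -0.47.

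Genes of filament turnover were spread to both sides. The list holds genes that bind monomers, sever, cap or nucleate filaments, and also Xirp1, Xirp2 and Nebl, which bind filaments. Of its 30 measured genes, 16 had a log2 ratio above 0 and the median was 0.030. Xirp1, a Z-disc and intercalated disc protein that binds actin, was at least 2-fold higher (1.12), and Cotl1, coactosin-like protein, at least 2-fold lower (-1.05). The monomer-sequestering thymosins Tmsb4x and Tmsb10 had -0.38 and -0.39 and the profilins Pfn1 and Pfn2 -0.48 and -0.62, while Lmod2, the cardiac leiomodin that lengthens thin filaments, had 0.75, Twf2, a twinfilin, 0.71 and the muscle cofilin Cfl2 0.49, with another Cfl2 probe at -0.21. The 16 genes of actin folding by the CCT chaperonin and prefoldin and of actin's N-terminal processing had a median of -0.0030, from -0.35 for Cct6a to 0.37 for Pdcl3.

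In the thin filament of the sarcomere, 15 measured genes had a median of 0.026 with none 2-fold different. Tnnt2, Tnni3 and Tnnc1, the troponins of the adult heart, had 0.21, 0.15 and 0.03. Tnnt1, the slow skeletal troponin T, had -0.97, and Tnni1, the fetal troponin I, was well above background on the control array alone, at least 1.67-fold lower. The widest on the other side were Tnnt3, dim on both arrays, with 0.76, Lmod2, and Neb (nebulin) with 0.71, its other probe at 0.20. All 12 cardiomyocyte markers were measured, 11 of them above 0 with a median of 0.16, which was -0.014 with quantile normalization and -0.0038 with cyclic loess.

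Of 14 genes for serum response factor and its co-factors, 6 had a log2 ratio above 0, with a median of -0.21. Srf itself had levels of 3.35 and 3.08 and a log2 ratio of -0.27, with its other probe at 0.40, so its direction is unsettled. Myocd was the one at least 2-fold lower. Of the myocardin-related factors, Mrtfa had -0.46, with its other probe at -0.07, and Mrtfb 0.71, its probes running down to 0.34. Klf4, a repressor of smooth muscle genes in cultured cells, had -0.76, and Foxo4, which binds myocardin, 0.71. Foxo4 was dim, with levels of -3.88 and -3.17 in control and WRN-K577M.

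**Figure D4:**
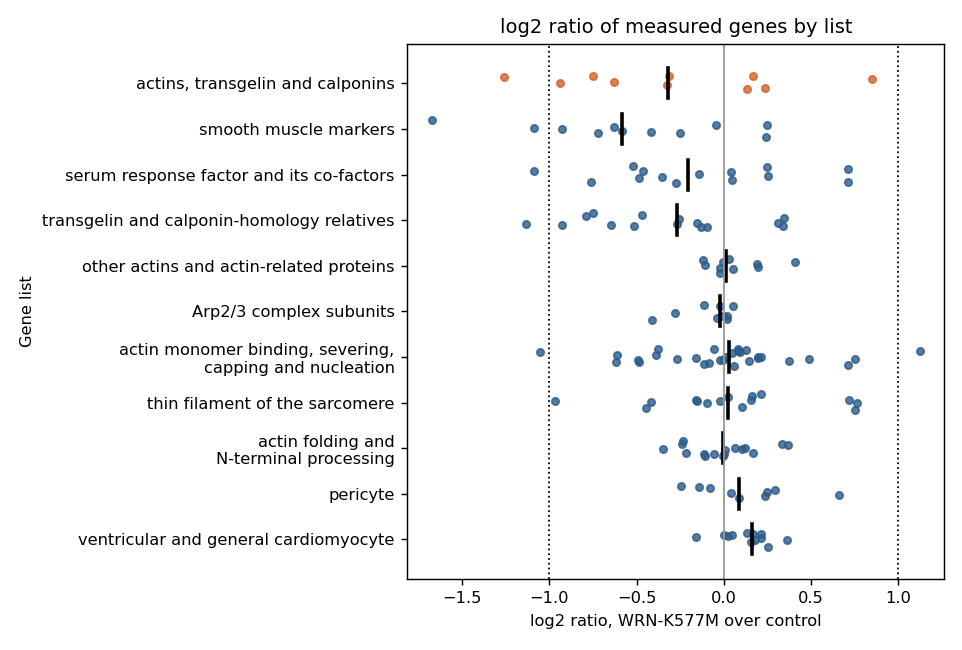
log2 ratio of WRN-K577M over control (x axis) for the measured genes of each list (1 point per gene, jittered vertically), with black bars at the medians and dotted lines at 2-fold. The 10 members (top) spread from -1.26 to 0.85. The 10 measured genes of the list of other actins and actin-related proteins, all of them actin-related proteins, lie between -0.12 and 0.41.

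Markers of other tissues and cell types differed between the samples too, and of these atria, lung and fat have smooth muscle in their vessels. Of 10 atrial markers, all measured, 7 had a log2 ratio below 0, with a median of -1.18 (-0.79 with a stricter filter on dim probes). Sln, Myl7, Myl4 and Dkk3 had -9.41, -7.39, -7.12 and -2.93, while Tbx5, Nr2f2 and Pam lay above 0 with 0.17, 0.12 and 0.02. The summed level of the 10 was 674 on the control and 175 on the WRN-K577M array. Of 9 lung epithelial markers 6 were well above background on the control array alone, the surfactant gene Sftpc at least 1336-fold lower, and 2 were measured. The 5 measured adipocyte markers were all at least 2-fold lower, with a summed level of 27.0 and 3.34. Of 9 endothelial markers 6 lay below 0, with a median of -0.21 and Cldn5, a tight junction claudin, at -0.99. The 4 measured erythroid genes were all at least 2-fold lower, from -2.97 for Alas2 to -1.80 for Hba-a1, with a median of -2.80. The part of these tissues and cell types in the lower Tagln, Cnn1, Actg2 and Acta1 levels was not tested.

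**Figure D5:**
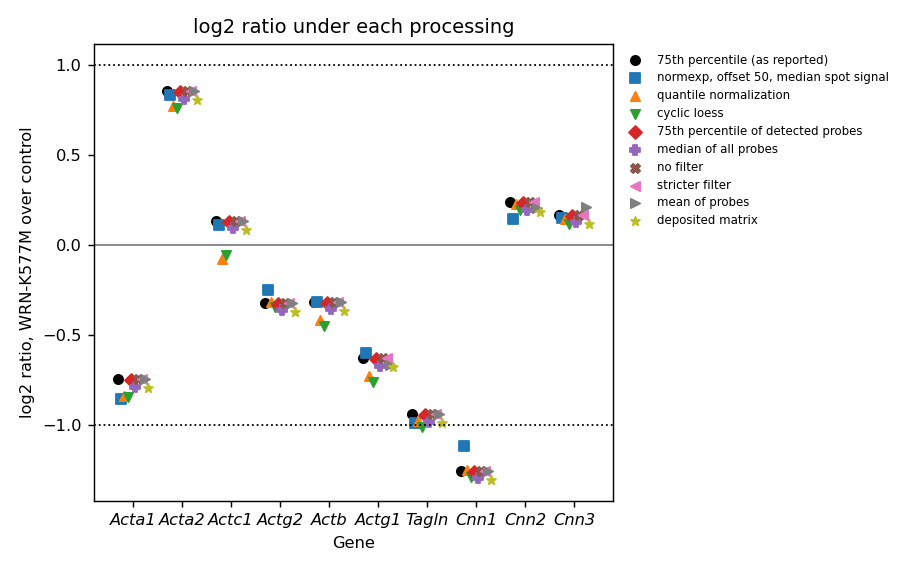
log2 ratio of WRN-K577M over control (y axis) for each gene (x axis) with the scaling used in the text (black circles) and under 9 other ways of processing the same arrays, with dotted lines at 2-fold. Actc1 alone crosses 0, with -0.08 and -0.06 under quantile normalization and cyclic loess, and Acta2 stays between 0.76 and 0.85.

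Under the 9 other ways of processing, the direction held for 9 of the 10 genes, all but Actc1. Acta2 ranged from 1.69-fold to 1.80-fold higher. The log2 ratio of Acta1 ranged from -0.86 to -0.75, that of Actg1 from -0.76 to -0.60, that of Tagln from -1.02 to -0.94 and that of Cnn1 from -1.31 to -1.12. Tagln passed 2-fold with cyclic loess, which leaves 2 members at least 2-fold lower in that setting.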

How the data were processed

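Each heart RNA was read on 1 array, and groups were taken from the genotype in the labels. Per the file headers, the deposited spot files hold linear intensity made by Agilent Feature Extraction (11.5.1.1 in the submitters' processing notes): a background-subtracted, detrended processed signal not scaled between arrays, its error estimate, median spot and background signals, and other columns of 0 or 1 flags. The deposited series matrix is the processed signal times 1 factor per array, 4.12 for the control and 4.86 for WRN-K577M, checked over all non-control spots (medians 79.5 and 79.0), and no source used here says why. Control spots and 257 outlier spots were left out, and none was saturated. Signals were divided by each array's own 75th percentile of non-control spots, 256 and 210, and taken to log2. Spots of a probe were averaged. A probe counted as well above background if that flag held for at least 50% of its spots, which 55.2% and 52.9% of probes met. RefSeq accessions were matched, without versions, to a GRCm38.p6 table. The array design is annotated on mm9, so no probe coordinates are given. A gene took its brightest probe well above background on both arrays. A gene above background on 1 array only has a bound, from its level there against the higher of its level and the lowest such level on the other array (-4.73 for the control, -4.42 for WRN-K577M). No p-values were computed, and the number of arrays limits precision. Named genes are the members, and from the lists genes among the 4 with the largest absolute ratio, bounds and those at least 2-fold different. Not every such gene is named, and others were named after their values were seen. No gene of like pattern is named, since 2 arrays give none to match. One further list, and 1 gene of the other smooth muscle contractile genes, are not reported here, and no median is given for the latter, since leaving out the gene moves it. Summed levels without a list's brightest gene, or without Ccn2, were added after the values were seen. Members and lists were chosen with earlier results of these data known. Normexp was run on the median spot signal. Python 3.11.15, numpy 2.4.6, pandas 2.3.3, R 4.3.3, limma 3.58.1 and matplotlib 3.10.9 were used, and the counting was tested on simulated data.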

Additional observations from a re-analysis of the deposited data

How the results depend on the processing

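No paired analysis was possible because each group has 1 array, so that no spread between samples can be fitted; for the same reason no replicate could be left out. Of the 10 members, 1 was at least 2-fold lower, and this number was 2 with cyclic loess, 4 at 1.5-fold and 0 at 3-fold; at 1.5-fold 1 member (Acta2) was higher. The whole array had 271 measured genes past 2-fold on the higher side and 484 on the lower. These numbers were 115 and 197 after normexp, which adds an offset of 50 to every signal, 1240 and 1080 with no filter on dim probes, 165 and 268 with a stricter filter (levels above -2), 946 and 1282 at 1.5-fold, and 63 and 154 at 3-fold. The members' log2 ratios moved by more than the SD between spots in 5 of 90 recomputed values: Cnn1 after normexp (-1.12), Actc1 with quantile normalization (-0.08) and cyclic loess (-0.06), and Actb (-0.45) and Actg1 (-0.76) with cyclic loess. Some of the 90 could not move, since neither filter setting touched a member and most members have a single probe to average. List medians moved by more than the SD between spots in 15 of 180. The smooth muscle marker median was -0.45 with the mean of each gene's probes. The cause of these shifts was not tested. Signal over background limits Actg2, with processed signals of 183 and 119.9, whose log2 ratio was -0.25 after normexp.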
